A study of Mus musculus with 25 samples.

Results

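The genes described here encode the parts from which epithelial cells build their contacts and tell their top from their base: adherens junctions, desmosomes, tight junctions, the apical and basolateral polarity complexes, the splicing regulators and surface proteins that go with them. They were chosen by name, with earlier results of these data known. The list held 33 symbols, of which 32 had a row in the table of 30926 genes; Prss8, the surface protease prostasin, was not analysed here. Of the 32, 23 passed the filter on low values, which asked for at least 5 counts in each 1000000 of the library (CPM) in at least 5 libraries, and were tested; the other 9 are given by their counts.

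Adherens junctions are built on E-cadherin, whose tail binds beta-catenin and p120-catenin and is tied to actin through alpha-catenin. Desmosomes anchor keratin filaments through plakoglobin, plakophilins and desmoplakin, and tight junctions seal the space between cells with claudins, occludin and junctional adhesion molecules held by scaffold proteins such as those of the zonula occludens family. In pancreatic ductal carcinoma, loss of these contacts is a hallmark of the epithelial-to-mesenchymal transition, and the repressors Snail, Slug and Zeb are known to bind short E-box motifs in the promoters of E-cadherin and other epithelial genes.

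Messenger RNA was measured in 25 libraries of KPC, a mouse pancreatic ductal adenocarcinoma cell line on the C57BL/6 background, in 5 groups of 5. Of the hairpin derivatives, shSlug1 and shSlug2 carried hairpins against Slug (gene Snai2) and shLuc a hairpin against luciferase, and all 3 were held in glutamine-free medium. The parental cells were held either in glutamine-free medium (starved) or in complete medium (complete). Each group was held for 24 h with 10% serum, which in the glutamine-free medium was dialysed. Whether the serum of the complete medium was dialysed is not stated here, and the part of serum type in the differences between starved and complete cells was not tested. No hairpin line in complete medium was analysed here, so in the hairpin lines the effect of the medium cannot be read. The labels do not say whether a hairpin line was a clone or a pool, what drove the hairpin, or whether replicates came from separate cultures, so each p-value rests on the spread among the libraries alone, which may be technical. The targeted gene Snai2 had 0, 7.11, 5.29, 8.58 and 9.45 CPM in shSlug1 and 4.82, 5.76, 7.66, 0 and 3.23 CPM in shSlug2, against 92.7, 66.0, 34.1, 38.0 and 48.8 CPM in shLuc. Every library of both Slug lines lay below every shLuc library, with log2 changes of -3.27 for shSlug1 and -3.64 for shSlug2 (adjusted p = 9.47e-05 and 2.03e-05, limma-trend). In parental cells Snai2 averaged 79.5 ± 14.5 CPM when starved against 7.54 ± 5.42 CPM in complete medium (SD, n = 5 each).

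Depth was low, from 158729 to 549893 counts per library, so that 1 count was worth between 1.82 and 6.30 CPM. Mitochondrial transcripts took between 17.3% and 26.5% of the counts in shSlug1, 14.2% to 17.7% in shSlug2, 17.3% to 21.7% in shLuc, 23.8% to 28.0% in starved parental and 18.8% to 27.8% in complete parental libraries. Of the ductal carcinoma markers, Krt18, Krt8, Krt19, Krt7 and Muc1 were read in every group, with Krt18 between 1804 and 5288 CPM on average, but Epcam, a surface protein of most carcinomas and itself one of the genes described here, had 10 counts in all 25 libraries. The summed level of the 10 fibroblast markers was at most 18.5 CPM in any library, that of 5 endothelial markers at most 19.3 CPM and that of 4 islet markers at most 9.45 CPM. The 4 acinar markers reached 46.9 CPM in 1 starved parental library, with Prss1 at 0 in all groups, and the leucocyte list, at most 81.5 CPM, was mostly Cd14. Since these are bulk libraries, fewer cells that express a gene and less RNA of it per cell cannot be told apart.

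The summed level of the genes was highest in complete parental cells. Over the 32 genes, the level averaged 1301 ± 69.4 CPM in shSlug1, 1262 ± 32.3 CPM in shSlug2, 1307 ± 112 CPM in shLuc, 1378 ± 63.7 CPM in starved and 1817 ± 128 CPM in complete cells (SD, n = 5 each). The 5 adherens junction genes made up most of the difference between starved and complete cells. Their sum averaged 398 ± 48.9, 387 ± 24.5 and 478 ± 88.2 CPM in shSlug1, shSlug2 and shLuc, 755 ± 28.7 CPM in starved and 1155 ± 115 CPM in complete cells, and the lowest complete library, at 1028 CPM, lay above the highest starved library, at 795 CPM. The 8 tight junction membrane genes ran the other way, with 324 ± 26.2, 361 ± 35.9 and 314 ± 24.1 CPM in shSlug1, shSlug2 and shLuc, 159 ± 23.2 CPM in starved and 137 ± 18.5 CPM in complete cells. For this sum the starved libraries, from 121 to 182 CPM, overlapped the complete ones, from 118 to 159 CPM. These sums are descriptions and were not tested; Ctnna1 and Ctnnb1 made up most of the first and F11r and Lsr most of the second.

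**Figure D1:**
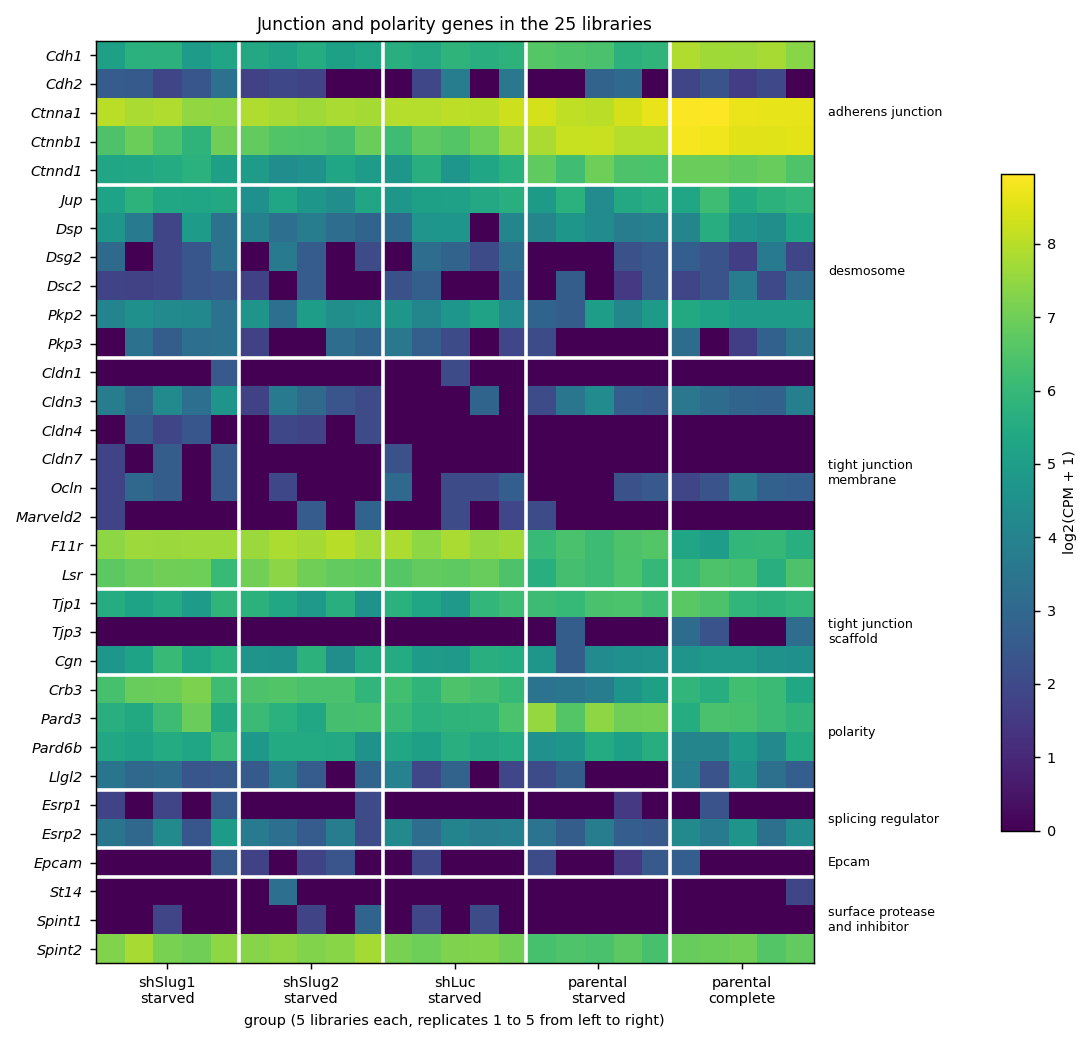
Level of the 32 genes (rows, grouped by junction type) in the 25 libraries (columns, 5 per group), as log2(CPM + 1) on the colour scale. Adherens junction genes other than Cdh2 are brightest in complete parental cells. F11r is brighter in the 3 hairpin lines than in parental cells, Crb3 is darkest in starved parental cells, and 9 rows from Cldn1 to Spint1 are at or near 0 nearly throughout.

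Promoter sequence is shown for 4 genes whose levels differed between groups and whose upstream bases hold the E-box that Snail-family repressors recognise. All 4 were called in shLuc against starved parental cells, and of them Crb3 and F11r also in starved against complete cells. None of the 4 was called in shSlug1 or shSlug2 against shLuc. RefSeq promoter windows (GRCm38.p6, 250 bases before to 50 after each start) were at hand for 21 of the genes, in 29 windows. Cdh1 was not among these genes. The windows were searched for CAGGTG and its complement CACCTG, which cannot overlap each other. At least 1 E-box stood in 14 of the 21 genes, or 66.7%, against 22.6% of all 27025 genes of the table, and 3 or more in a single window stood in 4 genes, or 19.0%, against 0.422%. The windows were also richer in G and C, with a median of 62.3% against 52.7% in all 32851 windows, and the part of base composition in these shares was not tested. A match is a description of the letters and shows no binding. The 250 bases upstream are given for Crb3 (chr17:57061951-57062200, plus strand), Lsr (chr7:30973470-30973719, minus strand), Spint2 (chr7:29281978-29282227, minus strand) and F11r (chr1:171437311-171437560, plus strand), 5′ to 3′ in the direction of the gene, with E-boxes in capitals.
Crb3: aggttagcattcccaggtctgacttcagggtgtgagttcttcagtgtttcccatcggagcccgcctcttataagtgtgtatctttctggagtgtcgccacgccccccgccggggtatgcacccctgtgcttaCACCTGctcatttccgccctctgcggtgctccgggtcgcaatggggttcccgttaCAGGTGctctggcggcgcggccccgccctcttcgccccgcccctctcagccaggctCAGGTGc
Lsr: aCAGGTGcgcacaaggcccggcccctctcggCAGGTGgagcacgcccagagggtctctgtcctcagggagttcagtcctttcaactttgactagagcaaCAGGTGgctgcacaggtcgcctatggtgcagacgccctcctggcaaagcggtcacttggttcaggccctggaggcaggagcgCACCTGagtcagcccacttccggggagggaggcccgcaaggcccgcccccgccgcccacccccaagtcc
Spint2: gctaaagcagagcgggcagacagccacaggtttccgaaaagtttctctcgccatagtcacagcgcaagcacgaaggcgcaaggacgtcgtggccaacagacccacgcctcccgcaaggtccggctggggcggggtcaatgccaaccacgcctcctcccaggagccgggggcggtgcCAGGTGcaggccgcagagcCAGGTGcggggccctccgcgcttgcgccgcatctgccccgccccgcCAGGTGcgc
F11r: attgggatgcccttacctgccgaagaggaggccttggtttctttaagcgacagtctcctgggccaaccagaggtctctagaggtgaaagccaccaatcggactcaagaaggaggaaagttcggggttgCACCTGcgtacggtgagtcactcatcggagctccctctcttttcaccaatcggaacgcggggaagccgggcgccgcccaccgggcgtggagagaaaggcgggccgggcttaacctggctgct
Crb3 held 3 upstream E-boxes, at 118, 63 and 7 bases before the start, and another 26 bases after it. Lsr held 4, at 249, 219, 151 and 69 bases before the start, and Spint2 held 3, at 74, 55 and 9 bases before it. F11r held 1, at 122 bases before its start. The fourth gene with 3 in a window was Pard3, in the second of its promoters, and its sequence is not shown. Cldn3, the 1 gene called with the Slug hairpins, held 1, at 32 bases after its start.

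**Figure D2:**
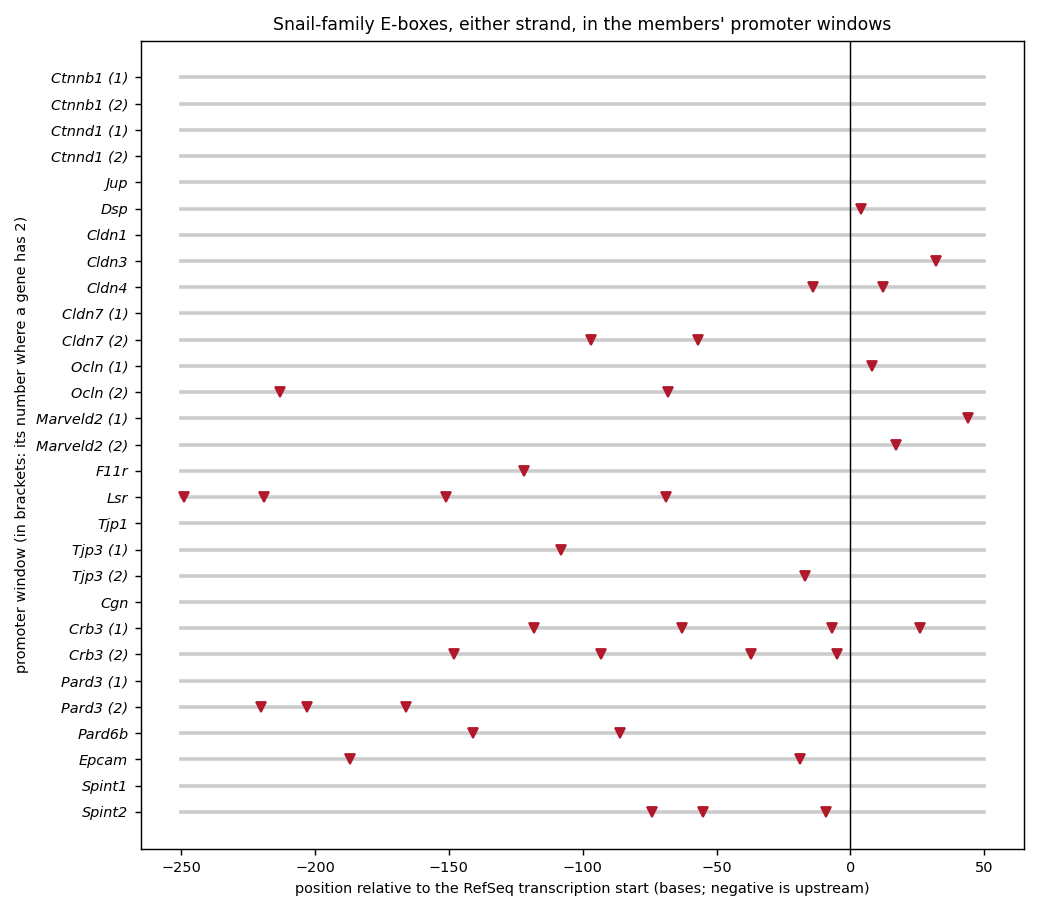
Position of each E-box, on either strand, in the 29 promoter windows of 21 genes (rows), in bases from the RefSeq start (negative is upstream). Crb3, Lsr, Spint2 and the second Pard3 window hold 3 or more marks, while 11 windows, among them those of Cgn, Tjp1, Ctnnb1 and Ctnnd1, hold none.

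Starvation of parental cells for 24 h lowered E-cadherin, alpha-catenin and beta-catenin, the desmosomal plakophilin Pkp2 and the polarity genes Crb3 and Llgl2, and raised F11r and the polarity scaffold Pard3. By limma-trend on log2(CPM + 1), with Benjamini-Hochberg adjustment over 12473 genes, 8 of the 23 tested genes were called at an adjusted p under 0.05, 2 higher and 6 lower, beside 22.4% of all tested genes, of which 10.8% higher and 11.7% lower. The median log2 change of the 23 was -0.53, against -0.06 over all tested genes, and 19 of the 23 changes were below 0. The share of all tested genes below 0 is not given here. Several of the 19 rest on few counts, read at a mean depth of 285372 counts in starved and 361124 in complete libraries. Cdh2, among the 19, had the higher mean CPM when starved. In 5 of the 23 the starved and complete libraries did not overlap, beside 15.7% of all tested genes.

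Cdh1, E-cadherin, the core adhesion molecule of the adherens junction, had 95.6, 88.6, 81.9, 52.7 and 56.4 CPM in the starved libraries, against 238, 205, 201, 219.7 and 165 CPM in complete medium. Every starved library lay below every complete one. The fall was 2.74-fold in group means, with a log2 change of -1.47 ± 0.22 (SE) and an adjusted p of 1.92e-07. Ctnnb1, beta-catenin, which also carries the Wnt signal, had 223, 292, 296, 246 and 249 CPM in starved cells, against 453, 437, 371, 363 and 383 CPM in complete medium, again with no overlap; its log2 change was -0.62 ± 0.19 (adjusted p = 0.0103). Once all libraries were thinned to the same depth its adjusted p was 0.0522. Ctnna1, alpha-catenin, which ties the complex to actin, fell less, to 320.0 ± 57.2 CPM in starved cells against 435 ± 49.1 CPM in complete medium (log2 change -0.45 ± 0.13, adjusted p = 0.00889), and 1 starved library at 404 CPM reached into the complete range. Ctnnd1, p120-catenin, which holds the cadherin at the membrane, was not called, with 95.9 ± 21.1 CPM in starved and 110.4 ± 13.0 CPM in complete cells. Cdh2, the mesenchymal N-cadherin, had 5 pooled counts in the starved and 4 in the complete libraries, too few to show a difference at this depth.

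Of the 6 desmosome genes 1 was called. Pkp2, a plakophilin that links desmosomal cadherins to desmoplakin, had 6.38, 5.21, 31.5, 16.4 and 28.2 CPM in starved libraries, against 42.8, 35.4, 30.0, 29.3 and 29.7 CPM in complete medium. The starved libraries spread widely and 1 lay inside the complete range. Its log2 change of -1.19 ± 0.42 (adjusted p = 0.0338) lost its call in 8 of 23 alternatives. Without complete replicate 1 or 2 the adjusted p was 0.0847 or 0.0617, and without starved replicate 1 or 2 it was 0.125 or 0.148. With all libraries kept, DESeq2 gave 0.0613. The limma fit gave 0.0536 with no filter, 0.0915 with the groups compared alone and 0.0829 at thinned depth. The other 5 all had negative log2 changes that did not pass the test, from -0.52 for Jup (plakoglobin, 37.7 ± 13.7 against 52.7 ± 13.3 CPM) to -1.82 for Pkp3, with 1 pooled count in starved and 10 in complete cells. Dsp, desmoplakin, stood at 17.5 ± 5.29 CPM in starved and 29.0 ± 13.0 CPM in complete cells (adjusted p = 0.51), and its 95% interval for the log2 change, -1.82 to 0.55, leaves room for a fall larger than that of Cdh1.

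The tight junction did not move as a block. F11r, junctional adhesion molecule A, rose to 66.9, 83.4, 69.3, 87.3 and 94.1 CPM in starved libraries, against 37.5, 31.5, 60.0, 61.5 and 48.6 CPM in complete medium, with no overlap (log2 change 0.77 ± 0.17, adjusted p = 0.000366). Lsr, the lipolysis-stimulated receptor found at the corners where cells meet, was at 68.4 ± 14.7 CPM in starved and 74.2 ± 15.8 CPM in complete cells and was not called. Its 95% interval, -0.51 to 0.28 on the log2 scale, excludes a fall the size of that of Cdh1. Tjp1, the scaffold zonula occludens protein, was at 74.1 ± 9.39 CPM in starved and 71.7 ± 21.4 CPM in complete cells (log2 change 0.09, interval -0.44 to 0.61). Cgn, cingulin, which couples the tight junction to actin, was at 19.0 ± 8.07 against 24.9 ± 2.72 CPM and was not called. Ocln, occludin, had 3 pooled counts in starved against 11 in complete libraries, a log2 change of -1.69 with an adjusted p of 0.111, and Cldn3 had 10 against 16.

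Among the 4 polarity genes 2 fell and 1 rose. Crb3, the transmembrane organiser of the apical domain, had 9.56, 10.4, 12.6, 23.6 and 32.9 CPM in starved libraries, against 58.9, 47.3, 75.0, 67.4 and 40.5 CPM in complete medium. All starved libraries lay below all complete ones, and the fall was 3.24-fold in means (log2 change -1.77 ± 0.26, adjusted p = 2.04e-07). Llgl2, a basolateral determinant, had 2 pooled counts in the starved libraries and 21 in the complete ones, a pooled ratio of 0.12 with a 95% counting interval from 0.0137 to 0.493 (log2 change -2.38 ± 0.77, adjusted p = 0.0169). Without complete replicate 3, at 21.4 CPM, its adjusted p was 0.063, and with a pseudocount of 5 its log2 change was -1.18. Pard3, the scaffold of the Par complex, rose to 185, 93.8, 170.1, 129 and 132 CPM in starved libraries, against 45.5, 82.7, 81.5, 67.4 and 56.7 CPM in complete medium, without overlap (log2 change 1.07 ± 0.24, adjusted p = 0.000415). Its partner Pard6b was at 34.4 ± 10.9 CPM in starved and 24.5 ± 12.0 CPM in complete cells and was not called.

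Neither splicing regulator was called. Esrp2, which drives epithelial splice forms, was at 7.51 ± 3.45 CPM in starved and 16.4 ± 5.96 CPM in complete cells (log2 change -1.04 ± 0.56, adjusted p = 0.186), with an exon of Nfatc3 over its 3′ end on the other strand, and Esrp1 had 1 pooled count in each. Spint2, the Kunitz-type inhibitor of surface serine proteases, was at 86.8 ± 10.1 CPM in starved and 115 ± 13.4 CPM in complete cells. Its adjusted p of 0.0688 did not pass, although it passed after quantile scaling (0.0278), with the filter raised to 20 CPM (0.0436) and without complete replicate 4 (0.0419) or starved replicate 4 (0.0429). In the same libraries 5 of the 6 further ductal markers fell as well, Krt19 to 119 CPM in starved against 684 CPM in complete cells, and 1, Sox9, rose, to 33.4 against 13.3 CPM, while Snai2 and Zeb2 rose, Zeb2 to 64.0 against 13.1 CPM and Zeb1 was not called, at 63.6 against 53.6 CPM. Of the leucocyte list Cd14 fell, to 18.9 against 68.7 CPM, with Ptprc at 0 in both groups. The part of any of these in the junction changes was not tested.

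**Figure D3:**
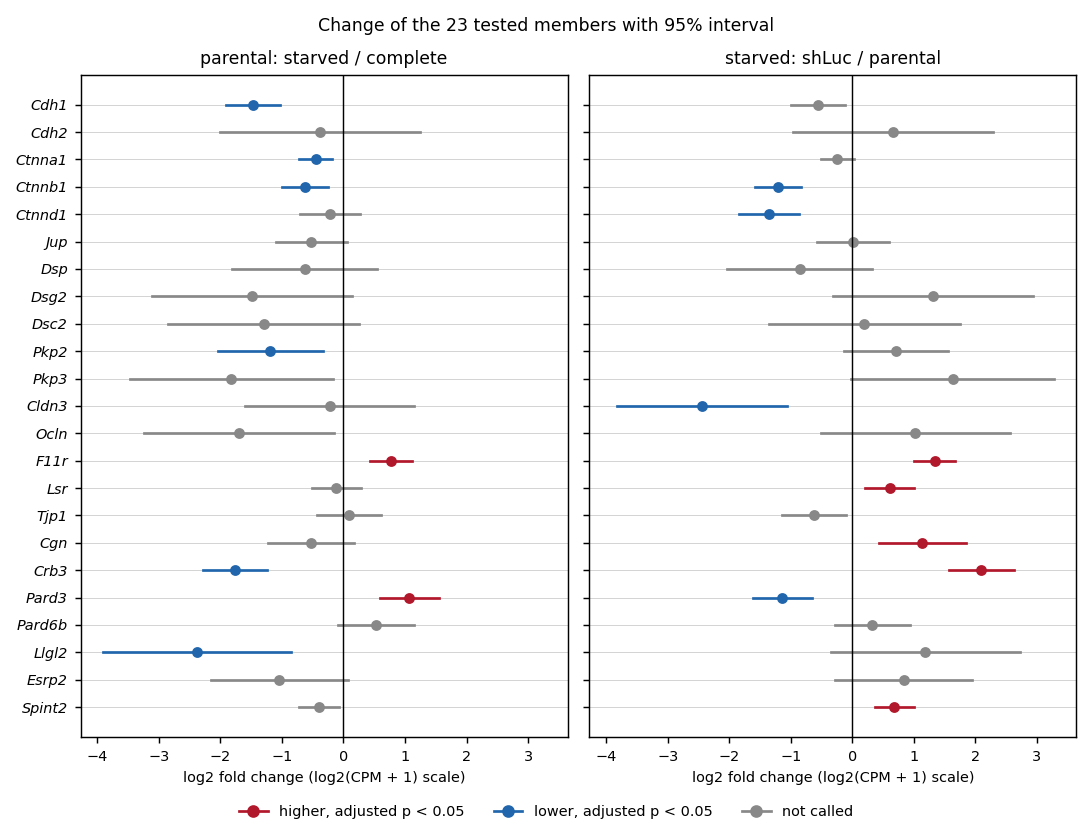
Log2 fold change, on the log2(CPM + 1) scale, of the 23 tested genes with 95% intervals from the fit of all 25 libraries: starved against complete parental cells on the left, shLuc against parental cells on the right, both starved. Both panels use the starved parental libraries, so they are not independent. On the left 6 genes are called lower and 2 higher, and on the right 4 lower and 5 higher.

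In the starved Slug hairpin lines, 1 junction gene, Cldn3, passed the test against the shLuc line, with shSlug1 and with the mean of both but not with shSlug2 alone, and Cdh1 did not pass. Lowered Slug and other differences between separately made lines cannot be told apart here. Against shLuc, shSlug1 had 1 of 23 genes called, Cldn3, higher, beside 1.46% of all tested genes, of which 0.369% higher and 1.09% lower. It was also the 1 gene of the 23 without overlap, beside 3.13%. The shSlug2 line had 0 called, beside 0.649%, of which 0.473% higher and 0.176% lower. In shSlug2 3 of 23 had an unadjusted p under 0.05 by limma (Cldn3, Ctnna1 and Ocln), and in shSlug1 also 3 of 23. The share of all tested genes at that unadjusted level is not given here, so these counts have no background. By edgeR's quasi-likelihood test 0 were called in shSlug2 as well. DESeq2 also called 0 there, but it gave no adjusted p for many of the 23, among them Cldn3, Ocln, Jup and Tjp1, which it could not call. The mean of both hairpins had 1 called, again Cldn3, higher, beside 1.13%, of which 0.625% higher and 0.505% lower, and 0 of 23 without overlap, beside 0.569%. These 3 comparisons use the same shLuc libraries. In the same comparisons the ductal marker Krt8 was lower in shSlug1 (195 against 282 CPM in shLuc, log2 change -0.54, adjusted p = 0.0165) and Krt7 lower in shSlug2 (109.7 against 193 CPM, log2 change -0.85, adjusted p = 0.00848), and their part in the junction values was not tested.

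Cdh1 had 33.2, 52.1, 52.9, 30.0 and 37.8 CPM in shSlug1 and 40.9, 34.5, 45.9, 33.1 and 38.8 CPM in shSlug2, against 48.2, 41.2, 55.8, 47.5 and 54.3 CPM in shLuc. The 3 lines overlapped, and both Slug lines had the lower mean. The log2 change against shLuc was -0.28 ± 0.22 for shSlug1 (95% interval -0.72 to 0.15) and -0.35 ± 0.22 for shSlug2 (interval -0.78 to 0.09), neither called (adjusted p of 0.649 and 0.684). The upper ends of both intervals lie far below a rise by as much as the fall of Cdh1 on starvation. Crb3 had the highest means of the series in these lines, 107 ± 30.7 CPM in shSlug1 and 80.3 ± 13.0 CPM in shSlug2, against 72.1 ± 11.9 CPM in shLuc, but the groups overlapped and neither difference was called (adjusted p of 0.372 and 0.934).

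Cldn3, a barrier-forming claudin, had 12.8, 7.11, 18.5, 8.58 and 23.6 CPM in shSlug1 and 2.41, 11.5, 7.66, 4.14 and 3.23 CPM in shSlug2, against 0, 0, 0, 6.33 and 0 CPM in shLuc. All shSlug1 libraries lay above all shLuc ones, and shSlug2 overlapped them through shLuc replicate 4. The counts behind these levels were few, 22 in shSlug1, 10 in shSlug2 and 2 in shLuc, for pooled ratios to shLuc of 11 (95% counting interval 2.71 to 96.7) and 4.81 (1.02 to 45.2). The log2 change was 3.22 ± 0.69 for shSlug1 (adjusted p = 0.00414), 2.02 ± 0.69 for shSlug2 (adjusted p = 0.242) and 2.62 ± 0.60 for the mean of both (adjusted p = 0.010). The call on the mean was lost without shLuc replicate 5 (adjusted p = 0.0501) and with edgeR (0.0577). At thinned depth neither passed, with an adjusted p of 0.117 for shSlug1 and 0.394 for the mean. A pseudocount of 5 brought the log2 changes of shSlug1 and of the mean to 1.62 and 1.22. The 3′ end of Cldn3 overlaps an exon of Wbscr25 on the other strand, and since the use of strand is not given, reads of the 2 genes cannot be told apart.

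Cldn4 and Cldn7, claudins of many simple epithelia, stayed near the limit of counting. Cldn4 had 4 counts in shSlug1 and 3 in shSlug2, and 0 in shLuc, starved and complete libraries, where a count of 0 over the group allows up to 1.83 CPM in shLuc, 2.10 CPM in starved and 1.66 CPM in complete cells. Cldn7 had 4 counts in shSlug1, 0 in shSlug2 and 1 in shLuc, and 0 in parental cells. Ocln had 7 counts in shSlug1, 1 in shSlug2 and 6 in shLuc; its log2 change in shSlug2 was -1.58 ± 0.77 (adjusted p = 0.536). No difference can be read from these counts at this depth.

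Among the genes with more counts, F11r was at 192 ± 12.0 CPM in shSlug1 and 221 ± 23.8 CPM in shSlug2, against 203 ± 23.9 CPM in shLuc, with 95% intervals for the log2 change of -0.41 to 0.26 and -0.22 to 0.46. Ctnna1 was at 215 ± 38.5 CPM in shSlug1 and 220.3 ± 12.7 CPM in shSlug2, against 267 ± 26.5 CPM in shLuc, with intervals of -0.59 to -0.06 for shSlug1 and, for shSlug2, from -0.54 to just under 0, and with adjusted p of 0.253 and 0.543. All 5 shSlug2 libraries of Ctnna1 lay below all 5 of shLuc. Spint2 was at 163 ± 34.5 CPM in shSlug1 and 175 ± 25.3 CPM in shSlug2, against 139.7 ± 11.2 CPM in shLuc, and in shSlug2 its libraries did not overlap those of shLuc either (log2 change 0.31 ± 0.16, adjusted p = 0.574); no overlap was found for 2.07% of all tested genes. Jup, Dsp, Tjp1, Cgn, Lsr, Pard3, Pard6b and Esrp2 gave log2 changes against shLuc between -0.75 and 0.41 in the 2 lines, none called, and some with wide 95% intervals, such as -0.77 to 1.60 for Dsp in shSlug1 and -1.86 to 0.36 for Esrp2 in shSlug2.

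Between the hairpins, shSlug1 and shSlug2, 0 of 23 genes were called by limma, edgeR or DESeq2. Beside them stood 0.513% of all tested genes by limma, of which 0.0241% higher and 0.489% lower. By limma 2 of the 23 had an unadjusted p under 0.05, again with no share of all tested genes given. DESeq2 gave no adjusted p here for many of the 23, among them Cldn3, Ocln and Jup, which it could not call. All 23 overlapped between the lines, where 2.08% of all tested genes did not. The genes at an unadjusted p under 0.05 were Ctnnd1, at 41.6 ± 6.98 CPM in shSlug1 and 27.7 ± 6.61 CPM in shSlug2 (log2 change 0.59 ± 0.24, adjusted p = 0.38), and Ocln (adjusted p = 0.493). Cldn3 had a higher mean in shSlug1 (14.1 against 5.79 CPM), but the log2 difference of 1.20 had a 95% interval from -0.18 to 2.58 and did not pass (adjusted p = 0.606), so a call in 1 hairpin and not in the other is not a shown difference between them.

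**Figure D4:**
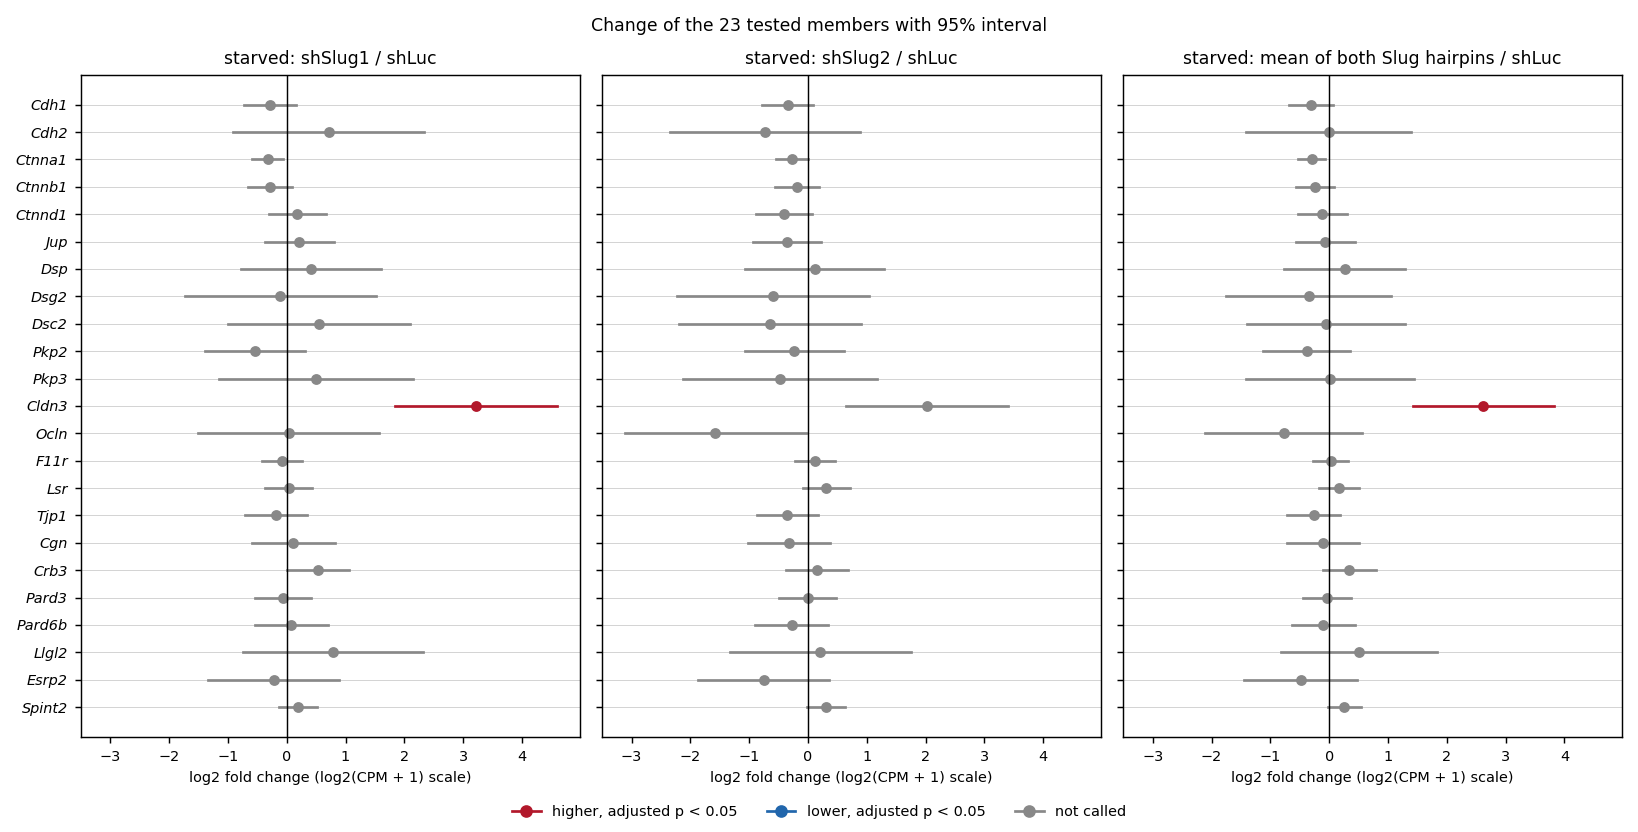
Log2 fold change, on the log2(CPM + 1) scale, of the 23 tested genes against shLuc, with 95% intervals: shSlug1, shSlug2 and the mean of both, all starved and all sharing the shLuc libraries. Cldn3 is the 1 called gene, with shSlug1 and with the mean. The points of Cdh1, Ctnna1 and Ctnnb1 lie left of 0 in all 3, as do those of Pkp2, Tjp1, Esrp2, Dsg2 and Pard3.

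The control hairpin line itself differed from the parental line in junction genes: Crb3, F11r, Spint2, Lsr and Cgn were higher in shLuc, and Ctnnb1, Ctnnd1, Pard3 and Cldn3 lower, with both starved. The comparison shares its shLuc libraries with those of the Slug hairpins and its parental libraries with that of starvation. Of the 23 genes, 9 were called, 5 higher and 4 lower, beside 23.6% of all tested genes, of which 13.5% higher and 10.1% lower. The median log2 difference was 0.61, against 0.10 over all tested genes. In 8 of the 23 the libraries did not overlap, beside 14.6% of all tested genes.

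Crb3 had 74.2, 57.7, 86.8, 79.1 and 62.4 CPM in shLuc, against the 9.56 to 32.9 CPM of the starved parental libraries, with no overlap. The difference was 4.04-fold in means (log2 2.10 ± 0.26, adjusted p = 4.13e-09). Crb3 thus averaged 72.1 CPM in starved shLuc cells and at 57.8 CPM in complete parental cells, a pair of groups not set against each other by a test here. Its 3′ end overlaps an exon of Dennd1c on the other strand, so that part of its counts could come from that gene. F11r had 229.9, 173, 223, 187 and 204 CPM in shLuc, above each of the starved parental libraries, which ranged from 66.9 to 94.1 CPM (log2 1.34 ± 0.17, adjusted p = 7.19e-09).

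Spint2 had 141, 126, 149, 152 and 130.3 CPM in shLuc, against 79.7, 88.6, 81.9, 104 and 80.0 CPM in starved parental cells (log2 0.68 ± 0.16, adjusted p = 0.000916). Lsr had 96.4, 110.0, 105, 117 and 86.8 CPM in shLuc, against 47.8, 78.2, 69.3, 85.5 and 61.1 CPM in starved parental cells (log2 0.61 ± 0.20, adjusted p = 0.0191). Both were higher without overlap, but Lsr did not pass without starved replicate 1 (adjusted p = 0.079), without shLuc replicate 4 (0.0501), with no filter (0.060) or at thinned depth (0.167), and exons of Gm17077 and Gm4673 lie over its 3′ end on the other strand. Cgn had 44.5, 30.2, 27.9, 47.5 and 46.1 CPM in shLuc, against 25.5, 5.21, 18.9, 21.8 and 23.5 CPM in starved parental cells (log2 1.14 ± 0.35, adjusted p = 0.0131). Without starved replicate 2, the lowest, its log2 difference was 0.75 with an adjusted p of 0.0969, and DESeq2 gave 0.0527.

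Beta-catenin and p120-catenin were lower in shLuc. Ctnnb1 had 70.5, 104, 93.0, 127 and 198 CPM in shLuc, all below the starved parental range of 223 to 296 CPM (log2 -1.21 ± 0.19, adjusted p = 8.73e-07). Ctnnd1 had 26.0, 49.5, 24.8, 38.0 and 51.6 CPM in shLuc, against 108, 72.9, 126, 87.3 and 84.7 CPM in starved parental cells, without overlap (log2 -1.35 ± 0.24, adjusted p = 1.53e-05). Ctnna1 (log2 -0.25, adjusted p = 0.176) and plakoglobin, Jup (log2 0.01, adjusted p = 0.98), were not called. Ctnna1 passed after quantile scaling (0.0283) and without mitochondrial genes in the total (0.0373). Cdh1 had 49.4 ± 5.84 CPM in shLuc against 75.1 ± 19.4 CPM in starved parental cells and just missed the threshold (log2 -0.56 ± 0.22, adjusted p = 0.0509). It passed under 6 of 23 alternatives, among them without starved replicate 4 (0.0244) or 5 (0.0316), and its adjusted p over all of them ran from 0.0179 to 0.142. An exon of Ulk4 lies over the 3′ end of Ctnnb1 on the other strand.

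Pard3 was at 66.7, 52.2, 55.8, 57.0 and 84.1 CPM in shLuc, below each starved parental library, of which the lowest had 93.8 CPM (log2 -1.14 ± 0.24, adjusted p = 0.000205, and 0.0542 at thinned depth). Cldn3, with its 2 counts in shLuc against 10 in starved parental cells, was called lower (log2 -2.44 ± 0.69, adjusted p = 0.00608), but not with edgeR (0.0741), with DESeq2 (0.0834) or at thinned depth (0.349), and the pooled ratio of 0.174 had a counting interval from 0.0185 to 0.816. Tjp1 was at 49.8 ± 16.9 CPM in shLuc and 74.1 ± 9.39 CPM in starved parental cells and did not pass (adjusted p = 0.0715), except without shLuc replicate 5 (0.0339) or without mitochondrial genes in the total (0.0364). The shLuc libraries also had a lower mitochondrial share and a higher summed level of the 8 ductal markers, 4947 to 6453 CPM against 2117 to 2650 CPM in starved parental cells, with Krt18 at 5087 against 1804 CPM. With mitochondrial genes left out of the total, 12 of the 23 genes were called, 5 higher and 7 lower. Over all tested genes the same setting called 1420 higher and 1531 lower, against 1680 and 1262 as reported. The part of the marker shift in these differences was not tested.

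**Figure D5:**
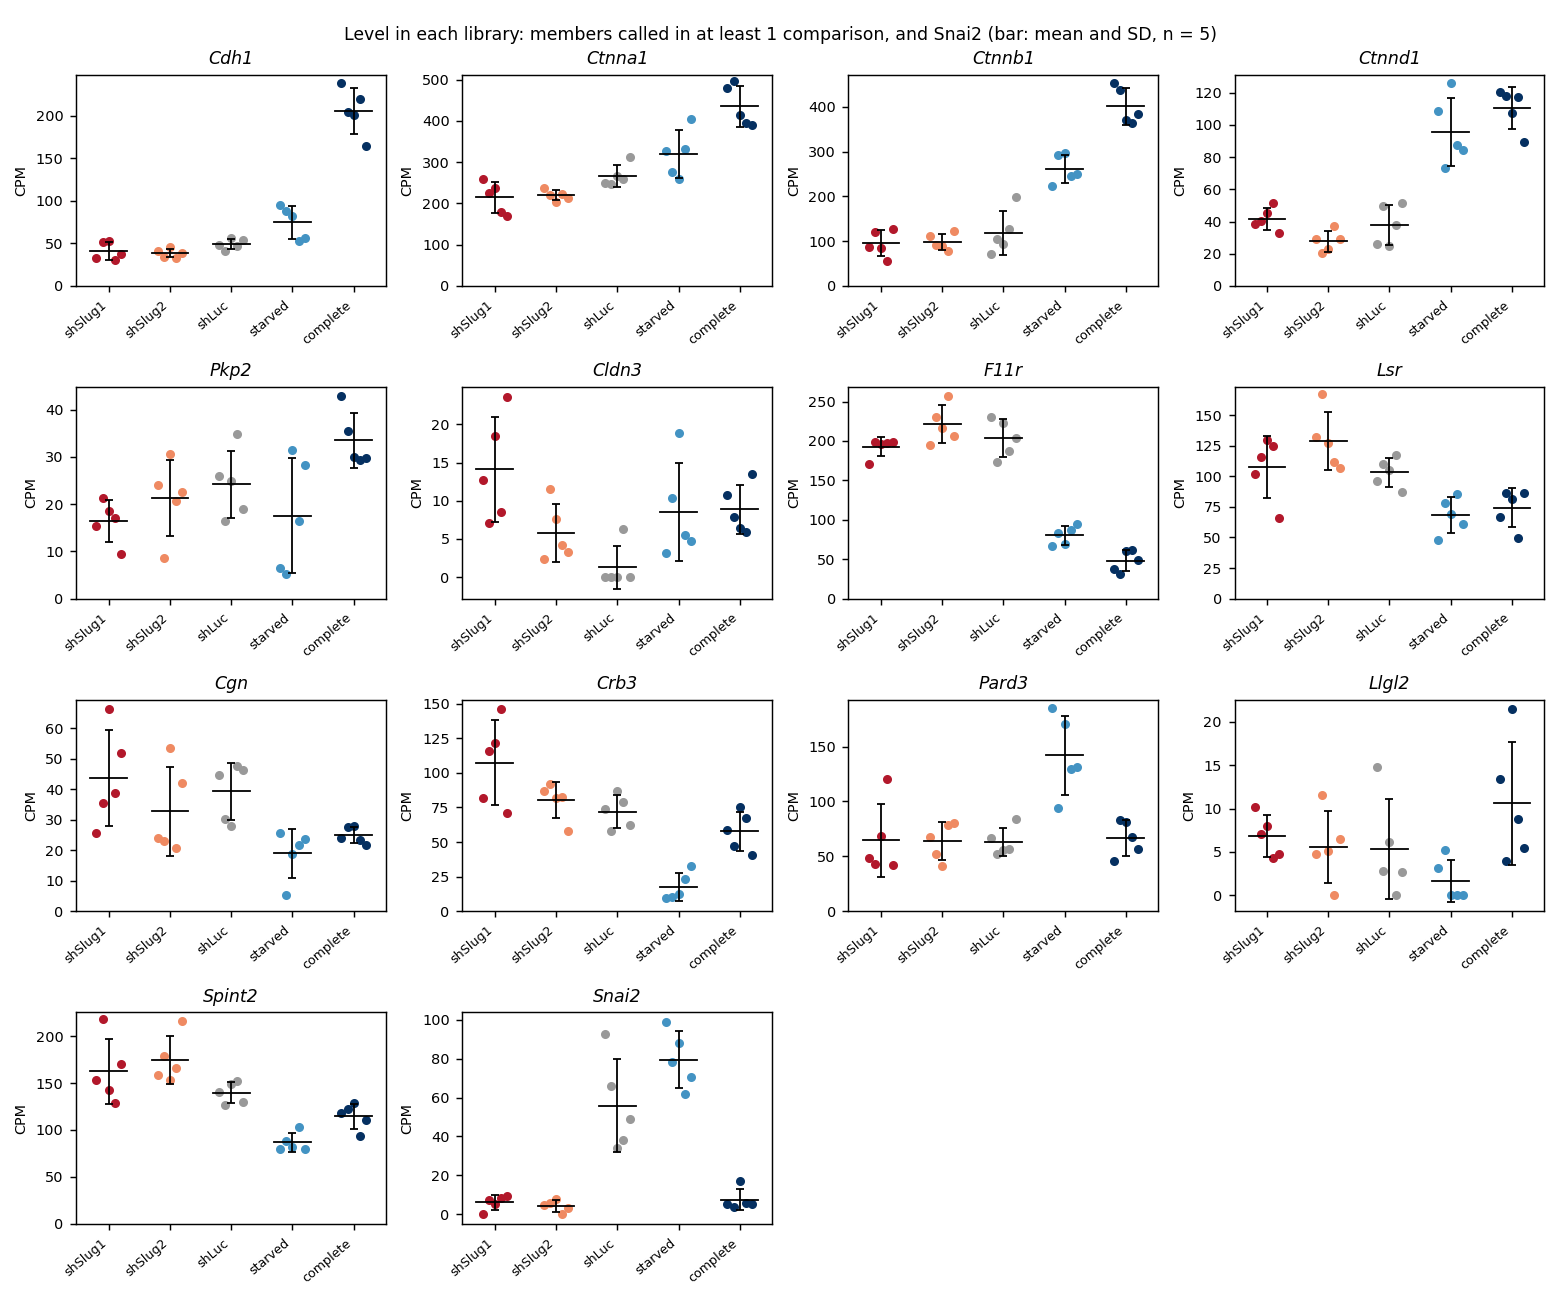
Level in CPM of the 13 genes called in at least 1 comparison, and of Snai2, in each library (points), with group means and SD (bars, n = 5); groups from left to right are shSlug1, shSlug2 and shLuc, all starved, then starved and complete parental cells. Cdh1, Ctnna1 and Ctnnb1 are highest in complete cells, F11r, Lsr and Spint2 are higher in the hairpin lines than in parental cells, and Crb3 is low in starved parental cells alone, with means of 107, 80.3, 72.1, 17.8 and 57.8 CPM from left to right.

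Set side by side over the 5 groups, some of the called genes show 3 arrangements, which are descriptions, not tests. The called genes Ctnnd1, Cgn, Pkp2, Llgl2 and Cldn3 are not placed in them. Cdh1, Ctnnb1 and Ctnna1 had their highest mean in complete parental cells, the next in starved parental cells and the lowest 3 in the hairpin lines, with no called difference among the 3 lines. F11r, Lsr and Spint2 had their 3 highest means in the hairpin lines, again with none called among them. Crb3 and Pard3 stood out in starved parental cells alone, Crb3 low at 17.8 CPM against group means between 57.8 and 107 CPM elsewhere, and Pard3 high at 142 CPM against means between 63.2 and 66.8 CPM elsewhere.

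The 9 genes under the filter had between 2 and 10 counts each over all 25 libraries. They are 4 tight junction membrane genes (Cldn1, Cldn4, Cldn7 and Marveld2, which encodes tricellulin), the scaffold Tjp3, Esrp1, Epcam, and the protease St14 (matriptase) with its inhibitor Spint1. Epcam had 1 count in shSlug1, 3 in shSlug2 and 1 in shLuc, and 3 in starved against 2 in complete cells. St14 had 3 counts, all in shSlug2 replicate 2, and 1 in complete cells, Spint1 had 1, 3 and 2 in shSlug1, shSlug2 and shLuc and 0 in parental cells, and Esrp1 had 3, 1 and 0 in the same lines. Tjp3 was the 1 gene of the 9 with most of its counts in parental cells, 1 in starved and 7 in complete libraries, with 0 in the hairpin lines, and its 3′ end overlaps an exon of Apba3 on the other strand. No direction can be read from these counts at this depth.

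Further genes of the same structures also moved in both directions. Of 20 tested further tight junction genes, 4 were called higher and 2 lower in starved against complete cells, beside 10.8% higher and 11.7% lower among all tested genes. Cldn2, a pore-forming claudin, fell to 9.42 ± 7.80 CPM in starved against 95.4 ± 13.9 CPM in complete cells (log2 -3.75, adjusted p = 1.98e-07), while Cldn12 rose (log2 2.06) with Amotl2 and Arhgef2. Of 23 further adherens junction and desmosome genes, 1 was called higher and 8 lower; Lima1, an actin-binding partner of alpha-catenin, fell 6.21-fold in means to 25.8 CPM in starved against 160.1 CPM in complete cells, and Ppl, periplakin, fell to 4.68 against 51.8 CPM, while Pvr, a nectin-like adhesion receptor, rose to 83.0 against 23.5 CPM. The median log2 change was -0.22 in the first list and -0.69 in the second, against -0.06 over all tested genes. Of 16 further polarity genes Lin7c and Mpp5, partners in the Crumbs complex, rose and Mpp7 fell. Of 9 epithelial transcription factors Klf4, Foxa2 and Foxa1 fell and Klf5 rose, and of 7 surface proteases and related genes Prss22 rose and Tmprss2 fell.

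In shLuc against parental cells, both starved, 4 of the 20 further tight junction genes were called higher and 6 lower, beside 13.5% higher and 10.1% lower among all tested genes, Jam2 among the higher (27.9 ± 13.1 CPM in shLuc, 7.82 CPM in starved parental cells) and Arhgef2 and Amotl2 among the lower. Of the 23 further adherens junction and desmosome genes 3 were higher, Ajuba and Lima1 among them, and 3 lower, with Vcl, vinculin, at 18.6 against 46.6 CPM. Pard3b, a relative of Pard3, was called higher (13.3 CPM in shLuc, 0.364 CPM in starved parental cells, there a single count), and Erbin and Mark2 lower. Of the further lists for tight junctions, adherens junctions and desmosomes, polarity, epithelial transcription factors and surface proteases, 0 genes were called by limma in shSlug1 or shSlug2 against shLuc. In that order 5, 4, 2, 1 and 1 genes had an unadjusted p under 0.05 by limma in shSlug1, and 2, 3, 2, 1 and 1 in shSlug2. No share of all tested genes at that unadjusted level is given beside them. By edgeR 1 further tight junction gene was called in shSlug1 and 0 genes of these lists in shSlug2. Of the repressors, Snai2 alone was called in either, with Zeb1 at 51.4, 57.0 and 70.1 CPM and Zeb2 at 20.6, 33.4 and 28.6 CPM in shSlug1, shSlug2 and shLuc.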

How the data were processed

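Total RNA (PureLink kit) was turned into 3′-end libraries with a QIAseq UPX kit, per the labels' protocols. The authors deposited 1 table of CPM values, which sum to 1000000 in each library; 100% of them were whole multiples of what 1 read is worth, within a tolerance of 0.001, so counts were recovered. The genome build was mm10, per the submitters' processing notes. The aligner, the use of strand and the treatment of molecular identifiers were not named in the labels. Gene positions came from GENCODE M21, which held 30857 of the IDs.

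A single limma model (version 3.58.1, in R 4.3.3, with an intensity trend) was fitted to log2(CPM + 1) of 25 libraries, with 20 residual degrees of freedom. Tests were two-sided and Benjamini-Hochberg adjusted over 12473 genes. A fold change on this scale can understate the change of low genes. Where libraries spread widely or read 0, it can also overstate the change or differ in sign from the group means. Cdh2 had a log2 change of -0.379 in starved against complete cells, with means of 2.715 and 2.338 CPM. edgeR 4.0.16 and DESeq2 1.42.0 ran on the recovered counts. The fits were tested on simulated data. Counting intervals are exact at 95% and cover counting error only. The 33 genes and the further lists were chosen with earlier results of these data known. Genes called in any comparison were named, with 16 fixed by name whatever their call and, from each further list, up to 4 called genes with the smallest p. Alternatives varied the pseudocount, filter, scaling, fit, libraries and replicate block. All pairs of replicates differed beyond sampling noise, with a chi-square per degree of freedom from 1.20 to 3.76. Some results are not reported here.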

Additional observations from a re-analysis of the deposited data

Results flagged for a closer look

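Of 115 sets of 5 libraries (23 tested genes in 5 groups), 4 held 1 library far from the other 4, where chance gives about 6. Pkp3 had 3.19 CPM in starved replicate 1 and 0 in the other starved libraries. Cldn3 had 6.33 CPM in shLuc replicate 4 and 0 in the other shLuc libraries. Ocln had 2.88 CPM in shSlug2 replicate 2 and 0 in the other shSlug2 libraries. Of these 3, Pkp3 and Ocln rest on 1 count each and Cldn3 on 2. F11r had 171 CPM in shSlug1 replicate 1 and 196 to 199 CPM in the other shSlug1 libraries.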

How the results depend on the processing

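The number of genes called stayed within 1.5 times its reported value in every alternative for starved against complete cells (6 to 9 of 23 against 8) and for shLuc against starved parental cells (7 to 12 against 9), and was 0 throughout for shSlug2 against shLuc and shSlug1 against shSlug2. In shSlug1 against shLuc the 1 call became 0 with the filter at 20 CPM, which leaves Cldn3 untested, with DESeq2 and at thinned depth. For the mean of both hairpins the 1 call became 0 with the filter at 20 CPM, edgeR, DESeq2, at thinned depth and without shLuc replicate 5; apart from the filter and the smaller counts after thinning, the cause was not tested. DESeq2 gave no adjusted p for Cldn3 in these comparisons. For shSlug2 against shLuc and between the hairpins it gave none for many of the 23 genes, which it therefore could not call. Leaving out each library in turn gave 7 to 9 calls for starved against complete cells, 1 throughout for shSlug1, 0 throughout for shSlug2, 0 to 1 for the mean, 0 throughout between the hairpins and 8 to 10 for shLuc. No call changed direction. Without 3 libraries doubted for depth or mitochondrial share (shSlug1 replicates 4 and 5, starved replicate 3), the counts were 8, 1, 0, 1, 0 and 9, in the order starved, shSlug1, shSlug2, both hairpins, shSlug1 against shSlug2, shLuc, as reported; this setting and thinning were chosen after seeing the data. Replicate numbers did not pair the libraries: deviations of same-numbered libraries correlated at -0.00467 on average (from -0.0499 to 0.0264), 2 of 25 libraries correlated best with their own number, and a replicate block gave 8, 1, 0, 1, 0 and 9 calls in that order.

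Counts over all genes moved by more than 1.5 times as follows. In shSlug1 against shLuc 182 genes became 298 with edgeR, 121 with the groups compared alone, 99 without shLuc replicate 5 and 69 at thinned depth; in shSlug2 81 became 138 with edgeR, 140 with DESeq2 and 29 thinned; for the mean 141 became 270 with edgeR, 243 with DESeq2, 86 and 67 without shLuc replicate 4 and 5, and 51 thinned; between the hairpins 64 became 38 with TMM scaling, 37 without shSlug2 replicate 4, 34 without the 3 libraries and 24 thinned; thinning also gave 1717 of 2799 for starved and 1617 of 2942 for shLuc. Scaling moved the split of higher against lower calls for shSlug1 to 58 and 104 (quantile) or 78 and 140 (no mitochondrial genes) from 46 and 136, for shSlug2 to 38 and 32 or 44 and 34 from 59 and 22, and between the hairpins to 11 and 41 (no mitochondrial genes) from 3 and 61. The share of higher calls moved by less but changed sides for starved cells with quantile scaling (1436 higher and 1353 lower, against 1341 and 1458 as reported), for shLuc without mitochondrial genes (1420 and 1531, against 1680 and 1262) and for the mean of both hairpins with quantile scaling (66 and 73) or without mitochondrial genes (79 and 84), against 78 and 63. By tool, shSlug1 had 151 higher and 147 lower with edgeR and 149 and 112 with DESeq2, and between the hairpins 26 and 64, and 32 and 55. Low counts limit Ocln, Dsc2, Cdh2, Pkp3, Dsg2, Llgl2 and Cldn3 and the 9 genes under the filter.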
